A study of Mus musculus with 16 samples.

Results

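The response of wild-type (WT) mouse macrophages to factors released by mammary tumor cells was measured in 8 of the 16 arrays of the series, 4 of WT bone marrow-derived macrophages (BMDM) grown in tumor-conditioned medium (TCM-BMDM) and 4 of WT BMDM grown in regular medium (RM-BMDM). The 8 arrays were chosen by their labels alone, and every gene with a probe set of its own symbol was kept, which gave 19505 genes. The marrow came from WT female mice, on a C57BL/6 background per the methods, aged 10 to 12 weeks, and the design text names 16 mice per genotype as the source of 4 replicates per group. All cells, in either medium, were differentiated for 5 days with 30% L929 fibroblast-conditioned medium, which supplies CSF1, the growth factor of macrophages. TCM came from cultures of the mouse mammary carcinoma line E0771 and made up 20% of the culture according to the sample labels and a higher share according to the methods. Nothing states that RM and TCM cultures with the same replicate number shared marrow, so the p-values measure the spread between these cultures. The other 8 arrays, of BMDM from Camkk2-/- mice in the same 2 media, entered the fit for its estimate of spread and are set beside the WT response where the difference between genotypes was tested. Camkk2, which encodes a calcium-dependent kinase, lay between 9.11 and 9.83 in the 8 WT arrays, with a log2 fold change of −0.08 (adjusted p = 0.951, limma).

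Macrophages that mature from marrow under CSF1 keep a core program of receptors and transcription factors, and add others when signals reach them. Type I interferons induce antiviral genes, many of which carry the interferon-stimulated response element in their promoters. Bacterial products and cytokines act through NF-kB and AP-1 on inflammatory genes, and the transactivator CIITA sets the transcription of the MHC class II genes. Tumors are known to draw monocytes from the blood through CCR2 ligands, and the cells that arrive carry Ly6C, which resident macrophages mostly lack.

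More genes were higher than lower in TCM. Of the 19505 genes, 398 were higher and 119 lower in TCM-BMDM than in RM-BMDM (differentially expressed genes, DEGs, with an adjusted p under 0.05 by limma and a natural-log fold change beyond 0.5, or 0.721 on the log2 scale), 2.04% and 0.61% of the genes tested. The rises were also larger than the falls. The log2 fold change was above 2 for 69 of the higher DEGs and below −2 for 2 of the lower DEGs, and above 1 for 276 and below −1 for 46. In 326 of the higher and 100 of the lower DEGs, the 4 TCM arrays lay apart from the 4 RM arrays without overlap, against 4.83% and 2.24% of all genes tested. The same values chose these DEGs, so the contrast is a description and no further support. The median log2 fold change over all genes was 0.04. With each array centred on its median, 304 genes were higher and 158 lower, and with quantile normalization repeated, 333 and 173, so the share of rises among the DEGs depended on the scaling. TCM replicate 3 was the lowest of the TCM arrays for 264 of the 398 higher DEGs, and it had the largest spread around its group, an SD of 0.355 over all genes beside 0.238 at the lowest, although any 2 WT arrays correlated at 0.984 to 0.993 over genes. Without it, 508 genes were higher and 110 lower. Without TCM replicate 2, 255 genes were higher and 67 lower, and without RM replicate 2, 262 were higher and 154 lower. The share of rises thus also depended on single arrays.

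**Figure D1:**
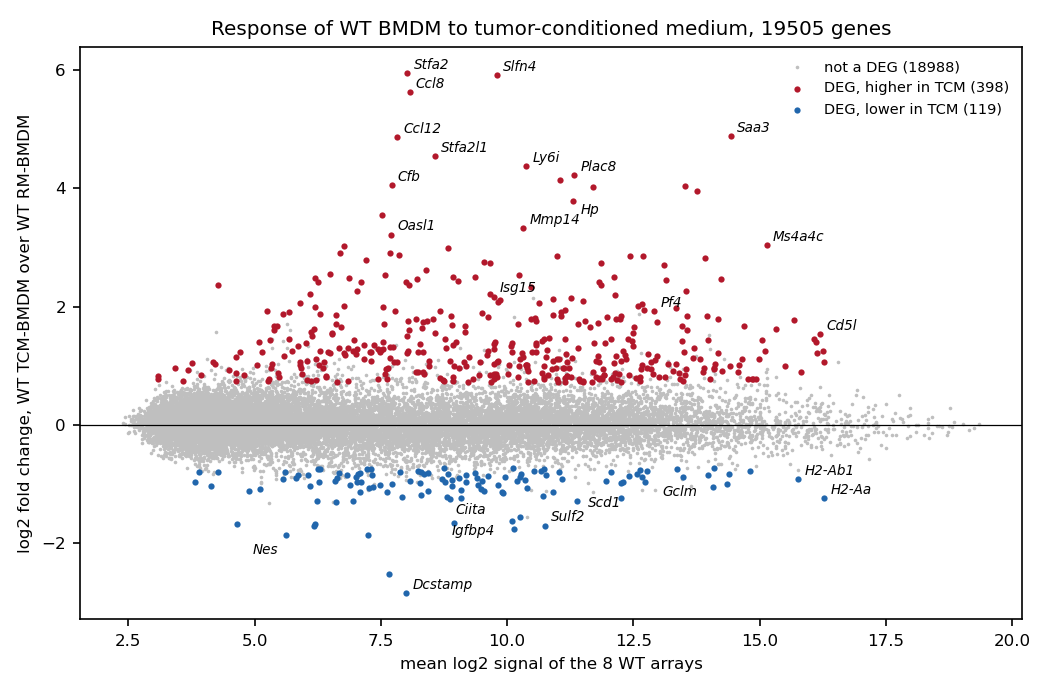
Log2 fold change of each of 19505 genes in WT TCM-BMDM over WT RM-BMDM (vertical axis) against its mean log2 signal over the 8 WT arrays (horizontal axis). Red points are the 398 DEGs that were higher in TCM and blue points the 119 that were lower, and the labelled genes Stfa2, Slfn4 and Ccl8 lie above 5, Stfa2 and Ccl8 from RM means below background, while Dcstamp, at −2.84, has the largest fall.

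Values below are log2 signals of a probe set in each array, in the order of replicates 1 to 4, and a gene in a list was called at an adjusted p under 0.05. At that threshold 2.21% of all genes were higher and 0.697% lower, which is the background for every count of list members. A log2 signal of 5.37 is the median of 23 probe sets that match no mouse sequence, whose means over the arrays ran from 2.48 to 6.82. Where a group's mean lies below 5.37, a fold against it is given as a lower bound beside the measured difference. The size of that difference is not settled by such a signal, nor by a mean only a little above 5.37. The probe sets of different genes respond differently, so levels are compared only within a gene. The array measures RNA of the whole culture, in which more cells of a type and more RNA per cell cannot be told apart.

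The cells of both media carried the macrophage program. Csf1r, which encodes the CSF1 receptor, was at 17.42, 16.99, 17.01 and 17.04 in RM and 17.20, 16.89, 16.72 and 16.75 in TCM, so TCM differed from RM by −0.22 (standard error, SE, 0.16, adjusted p = 0.611). Spi1, which encodes the myeloid transcription factor PU.1, had a log2 fold change of −0.05 (SD of 0.09 in RM and 0.06 in TCM, n = 4), Itgam, which encodes CD11b, one of −0.06, and Adgre1, which encodes F4/80, one of −0.27 (adjusted p = 0.453). Of 22 measured genes of macrophage identity, 3 were called higher and 0 lower (2 lower at an unadjusted p under 0.05, and 1 called lower without TCM replicate 3), at a median log2 fold change of 0.06. The 3 were the high-affinity Fc receptor gene Fcgr1, from 15.09 to 15.87 in RM to 16.61 to 16.87 in TCM (1.22, SE 0.20, adjusted p = 0.0011), the transcription factor gene Cebpb (0.76, SE 0.17, adjusted p = 0.0124) and the transcription factor gene Maf (0.82, adjusted p = 0.0452). The call of Cebpb was lost in a fit to the 8 WT arrays with the replicate number as a block (adjusted p = 0.0624). The call of Maf was lost under both scalings above and without RM replicate 1 or 2 or TCM replicate 2 or 4 (adjusted p of 0.114 to 0.171).

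Genes that type I interferon induces had the largest number of called members among the lists. Of the 50 measured genes, 36 were called higher and 0 lower (0 lower at an unadjusted p under 0.05), the fold change was positive for all 50, and their median was 1.19. Isg15, which encodes a ubiquitin-like protein that is joined to other proteins during antiviral responses, was at 8.14, 9.01, 9.06 and 8.39 in RM and 10.91, 11.22, 10.20 and 10.92 in TCM. The groups did not overlap, and Isg15 rose by 2.17 (SE 0.26, adjusted p = 6.23e-05). Ifit1bl1, a member of the IFIT family, whose proteins bind foreign RNA, was at 8.85, 9.36, 10.41 and 10.15 in RM and 14.36, 13.86, 12.03 and 14.65 in TCM (4.03, SE 0.47, adjusted p = 4.87e-05). Oasl1, which encodes a 2′-5′-oligoadenylate synthetase-like protein, rose by 3.22 (SE 0.59, adjusted p = 0.00339), and Xaf1, a proapoptotic interferon target, by 1.60 (adjusted p = 0.0013).

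The RM arrays already differed among themselves in this program. Irf7, which encodes the regulator that amplifies interferon production, was at 14.02 and 14.04 in RM replicates 1 and 2 but 15.54 and 15.57 in replicates 3 and 4. In TCM it reached 16.97, 16.60, 15.77 and 16.94, and its log2 fold change was 1.78 (SE 0.37, adjusted p = 0.00862). As a mean over the 50 genes, relative to the mean of the 8 WT arrays, the RM arrays stood at −1.22, −0.95, −0.17 and −0.40 and the TCM arrays at 1.04, 0.94, −0.16 and 0.92. TCM replicate 3 thus stood at the level of RM replicate 3 for this list, and it was the lowest of the TCM arrays for 35 of the 36 called genes. Without it, 48 genes of the list were called. Without any of RM replicates 1 and 2 or TCM replicates 1, 2 and 4, 18 to 21 were called, and a fit to the 8 WT arrays alone called 20. For Ifit1, named after its values were seen, the log2 fold change of 1.87 did not pass (adjusted p = 0.0673), with 11.85 in TCM replicate 3 beside 13.97 to 14.22 in the other TCM arrays, and passed without that array (adjusted p = 0.00444). Irf9, which encodes the DNA-binding subunit of the interferon-induced complex, had a log2 fold change of 0.29 (adjusted p = 0.698).

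GTPases that interferon-γ induces were also higher. Of 22 genes in this type II interferon list, 13 were called higher and 1 lower, at a median of 0.90. Iigp1, an immunity-related GTPase that attacks the vacuoles of intracellular parasites, was at 6.27, 5.76, 6.49 and 6.40 in RM and 9.65, 9.35, 7.92 and 9.61 in TCM, a log2 fold change of 2.90 (SE 0.37, adjusted p = 0.000103). The guanylate-binding protein genes Gbp4 and Gbp8 rose by 2.34 (adjusted p = 0.000242) and 1.84 (adjusted p = 0.000152), and the GTPase gene Tgtp2 by 2.41 (adjusted p = 0.00291). The gene called lower was Ciita. Irf1, an early transcription factor of the interferon-γ response, had a log2 fold change of 0.23 (SE 0.18, adjusted p = 0.66), and Cxcl9, a chemokine that interferon-γ induces, one of 0.82 from an RM mean below background (adjusted p = 0.165). Without RM replicate 2 or TCM replicate 2 or 4, 7 genes of the list were called higher, as with the WT arrays alone.

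Gene families that interferon induces were called in larger part than the background. In the Schlafen family, 7 of 9 genes were called higher and 0 lower (0 lower at an unadjusted p under 0.05), or 4 in a fit to the 8 WT arrays with a replicate block. Slfn4, a Schlafen gene of myeloid cells, was at 5.78, 6.52, 7.72 and 7.36 in RM and 13.10, 12.70, 11.61 and 13.60 in TCM, a 60.2-fold difference (log2 5.91, SE 0.50, adjusted p = 6.99e-07). Slfn1 rose by 4.15 (SE 0.62, adjusted p = 0.000465), from RM arrays that spanned 7.02 to 10.33, and Slfn2, a gene required for the survival of quiescent T cells and monocytes in mice, by 0.77 (adjusted p = 0.00874). The call of Slfn2 was lost in a fit to the 8 WT arrays (adjusted p = 0.0502) and in the same fit with the replicate number as a block (adjusted p = 0.0703). Of 9 genes of the p200 family, which includes sensors of DNA, 6 were called higher, among them Ifi213 (2.82, adjusted p = 0.000757) and Ifi208 (2.51, adjusted p = 0.00276). Schlafen and p200 genes lie in clusters of near-identical copies, and cross-hybridization between them was not tested. Of 19 genes of MHC class I presentation, 7 were called higher, including the peptide transporter gene Tap1 (0.96, adjusted p = 0.00938) and the nonclassical class I gene H2-T22 (1.38, adjusted p = 0.00502). The call of Tap1 was lost in the blocked fit to the WT arrays (adjusted p = 0.0528). The class I count fell to 2 without RM replicate 2 or TCM replicate 2 or 4 or with the WT arrays alone, and to 4 without RM or TCM replicate 1 or with arrays centred on their medians.

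The promoters of the genes that rose were searched for the interferon-stimulated response element (ISRE). The core of the element was searched as GAAA, any 2 bases and GAAA on both strands of a window from 250 bases before to 50 bases after the start site farthest upstream of each gene (RefSeq, GRCm38.p6), which was at hand for 15691 of the 19505 genes. It was in 3.4% of these windows, in 17.4% of those of the higher DEGs (53 of 304, 95% Wilson interval 13.6% to 22.1%) and in 0 of 93 of those of the lower DEGs (interval up to 3.97%). In the type I list it was in 46.2% (18 of 39) and in the type II list in 53.3% (8 of 15). Outside the interferon, Schlafen, p200 and antiviral lists, 23 of 248 windows of higher DEGs held it (9.27%, interval 6.26% to 13.5%). Saa3 and Cxcl10 were among them, and so were Oas1c, Phf11a and Parp11, whose relatives are in the type I list. Being outside the lists thus does not place a gene outside the interferon response. The stefin genes had it in 0 of 10 windows (interval up to 27.8%), the neutrophil genes in 0 of 20 (up to 16.1%) and the CC chemokine ligands in 0 of 7 (up to 35.4%). These intervals include the 3.4% of all windows, so so few windows do not show that these genes lack the element more often. The intervals treat genes as independent, which members of a cluster are not, and a match is a description and not a binding site. The following windows are printed 5′ to 3′ on the strand of the gene, because they show the element in genes of both kinds, with matches to the ISRE core in capitals and, in Cxcl10, also a match to the NF-kB motif (GGG, any 2 bases, TT, any base, CC). Isg15, at chr4:156200769-156201068 (minus strand), has 3 overlapping matches at −78 to −57 from the start site, Ifit1bl1, at chr19:34601919-34602218 (minus strand), has 1 on the opposite strand, Cxcl10 lies at chr5:92348840-92349139 (minus strand) and Saa3 at chr7:46715627-46715926 (minus strand). The ISRE matches in these windows share no base with a match to the AP-1 motif (TGANTCA) or the NF-kB motif.
Isg15: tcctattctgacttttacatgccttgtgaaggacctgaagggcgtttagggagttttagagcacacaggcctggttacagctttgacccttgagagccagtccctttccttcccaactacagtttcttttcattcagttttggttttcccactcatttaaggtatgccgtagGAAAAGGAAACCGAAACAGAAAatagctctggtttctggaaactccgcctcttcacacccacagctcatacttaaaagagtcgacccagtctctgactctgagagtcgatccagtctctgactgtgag
Ifit1bl1: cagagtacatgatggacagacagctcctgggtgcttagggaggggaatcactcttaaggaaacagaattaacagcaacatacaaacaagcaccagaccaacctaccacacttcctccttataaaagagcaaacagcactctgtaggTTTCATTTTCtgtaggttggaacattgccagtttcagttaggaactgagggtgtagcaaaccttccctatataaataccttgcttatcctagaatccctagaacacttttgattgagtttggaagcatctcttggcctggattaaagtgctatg
Cxcl10: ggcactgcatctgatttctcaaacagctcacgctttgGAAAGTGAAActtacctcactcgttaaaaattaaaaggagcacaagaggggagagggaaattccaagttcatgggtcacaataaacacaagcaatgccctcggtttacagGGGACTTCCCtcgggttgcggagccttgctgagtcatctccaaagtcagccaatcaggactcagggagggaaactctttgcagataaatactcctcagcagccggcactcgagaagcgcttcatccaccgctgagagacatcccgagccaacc
Saa3: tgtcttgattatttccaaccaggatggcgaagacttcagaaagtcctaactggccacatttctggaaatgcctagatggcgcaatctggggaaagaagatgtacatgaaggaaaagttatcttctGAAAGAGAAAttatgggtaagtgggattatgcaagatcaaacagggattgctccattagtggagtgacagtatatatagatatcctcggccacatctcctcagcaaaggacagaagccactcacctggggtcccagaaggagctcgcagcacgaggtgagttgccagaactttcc

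**Figure D2:**
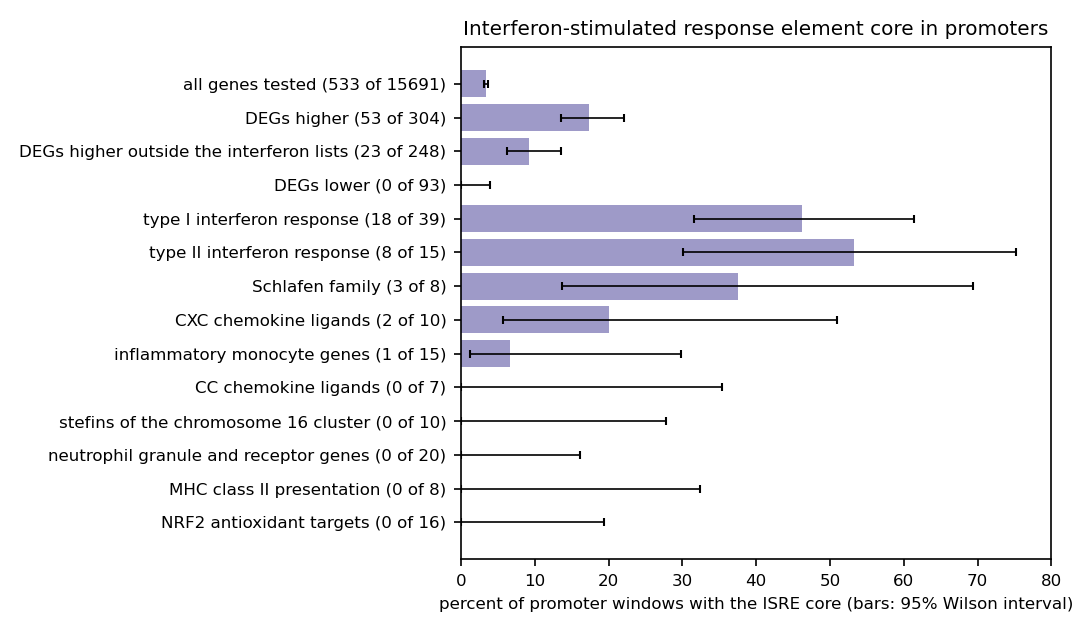
Percent of promoter windows that hold the ISRE core, for all genes tested, the DEGs and 10 gene lists, with the number of windows in brackets and 95% Wilson intervals as bars. The type I and type II interferon lists stand at 46.2% and 53.3%, all genes at 3.4%, and the lower DEGs at 0.

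Stefin genes were higher in TCM. Stefins are small inhibitors of cysteine cathepsins, and the mouse carries a cluster of them on chromosome 16 that is expressed in neutrophils and their precursors. Stfa2 was at 5.42, 4.74, 4.64 and 5.39 in RM, about the level of the background probe sets, and at 11.31, 11.62, 10.01 and 11.04 in TCM. The log2 fold change was 5.95 (SE 0.28, adjusted p = 1.27e-10), at least 49.4-fold over background. Of the 11 measured genes of the cluster, 9 were called higher and 0 lower (0 at an unadjusted p under 0.05), at a median of 2.37, and 9 had an RM mean below background. With those 9 genes at their bounds the median was 1.84. Of the genes above the background median in RM, Stfa2l1 rose by 4.55 (SE 0.40) and Cstdc4 by 3.55 (SE 0.32). Of those below it, Csta2 was at least 7.57-fold higher in TCM, Cstdc5 at least 4.17-fold, Cstdc6 at least 3.58-fold, Stfa3 at least 2.96-fold and Stfa1 at least 1.07-fold. Their adjusted p-values ran from 1.16e-06 for Stfa2l1 to 0.000579 for Cstdc6. Csta3, with 4.06 ± 0.09 in RM and 5.21 ± 0.45 in TCM (SD, n = 4), both below background, was called (adjusted p = 0.0307) but not without any of RM replicates 1 to 4 or TCM replicates 1 and 2 (adjusted p of 0.0587 to 0.128). Cstdc3 (0.54, adjusted p = 0.383) and Csta1 (0.38, adjusted p = 0.56) stayed below background in both media.

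Cross-hybridization between the stefin probe sets was not tested, so the share of each gene in the signal is uncertain. Some of their promoter windows are much alike. The windows of Stfa2, at chr16:36408314-36408613 (minus strand), and Stfa2l1, at chr16:36156561-36156860 (plus strand), had 275 of 300 bases in common after a global alignment (91.7%), and over all pairs of the cluster the identity reached down to 46.7%. Both windows are printed to show this likeness and carry no match to the ISRE core or the NF-kB motif.
Stfa2: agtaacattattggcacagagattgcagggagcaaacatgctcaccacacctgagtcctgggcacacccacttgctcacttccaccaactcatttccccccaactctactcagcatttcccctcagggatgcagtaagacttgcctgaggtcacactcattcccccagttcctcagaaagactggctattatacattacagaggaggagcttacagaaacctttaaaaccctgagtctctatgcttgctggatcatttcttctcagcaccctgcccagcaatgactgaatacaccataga
Stfa2l1: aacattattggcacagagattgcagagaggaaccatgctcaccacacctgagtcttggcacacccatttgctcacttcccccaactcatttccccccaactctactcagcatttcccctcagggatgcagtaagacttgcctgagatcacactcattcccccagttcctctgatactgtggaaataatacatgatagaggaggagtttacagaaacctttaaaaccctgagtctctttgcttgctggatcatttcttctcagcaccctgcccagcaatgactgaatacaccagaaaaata

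Genes of the neutrophil lineage rose along with the stefins. Of 24 measured genes of neutrophil granules and receptors, 13 were called higher and 0 lower (0 at an unadjusted p under 0.05), at a median of 1.32, and 8 were called without RM or TCM replicate 2. Hp, which encodes haptoglobin, stored in neutrophil granules, was at 9.66, 9.43, 8.95 and 9.62 in RM and 13.95, 13.75, 12.26 and 12.81 in TCM, a 13.7-fold difference (log2 3.78, SE 0.44, adjusted p = 4.87e-05). Cxcr2, which encodes the receptor that guides neutrophils, rose by 1.65 (SE 0.25, adjusted p = 0.00047), the surface protein gene Mcemp1 by 1.79 (adjusted p = 0.000591) and S100a8 and S100a9, whose products form calprotectin, by 2.10 (adjusted p = 0.00291) and 2.04 (adjusted p = 0.00306). S100a9 was named after its values were seen. Mpo, which encodes the myeloperoxidase of primary granules, was at 7.63, 7.38, 6.65 and 6.69 in RM and 11.53, 10.08, 8.94 and 8.30 in TCM (2.62, SE 0.57, adjusted p = 0.0118), a spread of more than 3 log2 units within TCM. The elastase gene Elane followed the same order in TCM, at 11.23, 9.88, 8.34 and 8.34, and its call (2.46, adjusted p = 0.0278) was lost without any of RM replicates 2 to 4 or TCM replicates 1 and 2 (adjusted p of 0.0589 to 0.0938). Genes of later granules were uneven. Lcn2, which encodes lipocalin 2, was at 15.50, 15.37, 12.07 and 14.37 in TCM (1.98, adjusted p = 0.0378), a call that was lost when any single array other than TCM replicate 3 was left out (adjusted p of 0.068 to 0.151), and Ngp, named after its values were seen, ranged from 10.50 to 14.64 in TCM and had a log2 fold change of 0.78 (SE 0.62, adjusted p = 0.662).

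Genes of inflammatory monocytes formed a further group. Of 18 measured, 11 were called higher and 0 lower (0 at an unadjusted p under 0.05), at a median of 1.78, and in all 11 TCM replicate 3 was the lowest TCM array. Plac8, a gene of monocytes and neutrophils, was at 10.08, 9.48, 8.09 and 9.21 in RM and 13.52, 13.82, 12.41 and 14.04 in TCM, an 18.8-fold difference (log2 4.23, SE 0.40, adjusted p = 2.87e-06). Ly6c2, whose product is the Ly6C antigen that marks monocytes newly released from marrow, was at 12.36, 12.33, 10.67 and 11.74 in RM and 16.84, 16.38, 13.63 and 16.07 in TCM (3.95, SE 0.52, adjusted p = 0.00013). Ly6c1 gave 4.04 (adjusted p = 0.000154) and Ly6i 4.37 (adjusted p = 6.23e-05), but these genes are so alike that their probe sets may read the same transcripts. Ms4a4c, a membrane protein gene that interferon also induces, rose by 3.04 (adjusted p = 6.23e-05) and the matrix protein gene Thbs1 by 2.47 (adjusted p = 0.000417). Ccr2, which encodes the chemokine receptor of the same cells, had a log2 fold change of 0.65 (SE 0.43, adjusted p = 0.561), with 12.15 to 14.37 in RM and 12.94 to 14.92 in TCM.

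Markers of some other marrow cells differed as well. Of 10 markers of myeloid progenitors, 5 were called higher and 0 lower, but 3 of the 5 (Mpo, Elane and Ctsg) are also in the neutrophil list, and 2 or 3 were called without RM replicate 2, 3 or 4 or TCM replicate 1 or 2. The list had means of −0.80 to −0.24 in the RM arrays and 0.05 to 1.17 in the TCM arrays, relative to the mean of the 8 arrays. Of 10 markers of mast cells, basophils and eosinophils, 3 were higher, at −0.53 to −0.25 and 0.17 to 0.53, respectively. Mcpt8, a protease gene of basophils, was at 4.71, 5.44, 5.15 and 4.88 in RM, at background, and at 7.04, 7.93, 7.24 and 7.63 in TCM, at least 4.25-fold over background (adjusted p = 0.000773), and Prss34, of the same cells, rose by 2.53 (adjusted p = 0.00796). Myb, a transcription factor gene of progenitors, rose by 1.23 (adjusted p = 0.018), which was lost without RM replicate 2 (adjusted p = 0.0744) or TCM replicate 1 (adjusted p = 0.0558), and Cd34, a surface marker of progenitors, was at least 1.75-fold higher from an RM mean below background (adjusted p = 0.0291), which was lost without RM replicate 3 or 4 or TCM replicate 3 or 4 (adjusted p of 0.0718 to 0.108). Of 6 B cell, 9 T and NK cell, 12 dendritic cell and 10 epithelial markers, the last including genes of mammary carcinoma cells, 0 were called in either direction (limma, 1 dendritic cell marker without TCM replicate 3), and 3, 6, 6 and 8 of them had means below background in both media. In the same order, 0, 1, 3 and 1 were higher and 0 lower at an unadjusted p under 0.05. Of 6 erythroid and megakaryocyte markers, 1 was called higher (Pf4, also a CXC ligand), 2 without RM replicate 3 or 4 or TCM replicate 1, and 3 passed at an unadjusted p under 0.05, with list means of −0.59 to −0.18 in RM and 0.12 to 0.66 in TCM. Among 9 markers of fibroblasts, 1 was called, and 0 without any single array other than TCM replicate 1. By flow cytometry, which reads surface protein and not RNA, the paper describes most of its BMDM as carrying macrophage markers and lacking Ly6C. The part of other marrow cells in the rises of neutrophil and monocyte genes was not tested.

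**Figure D3:**
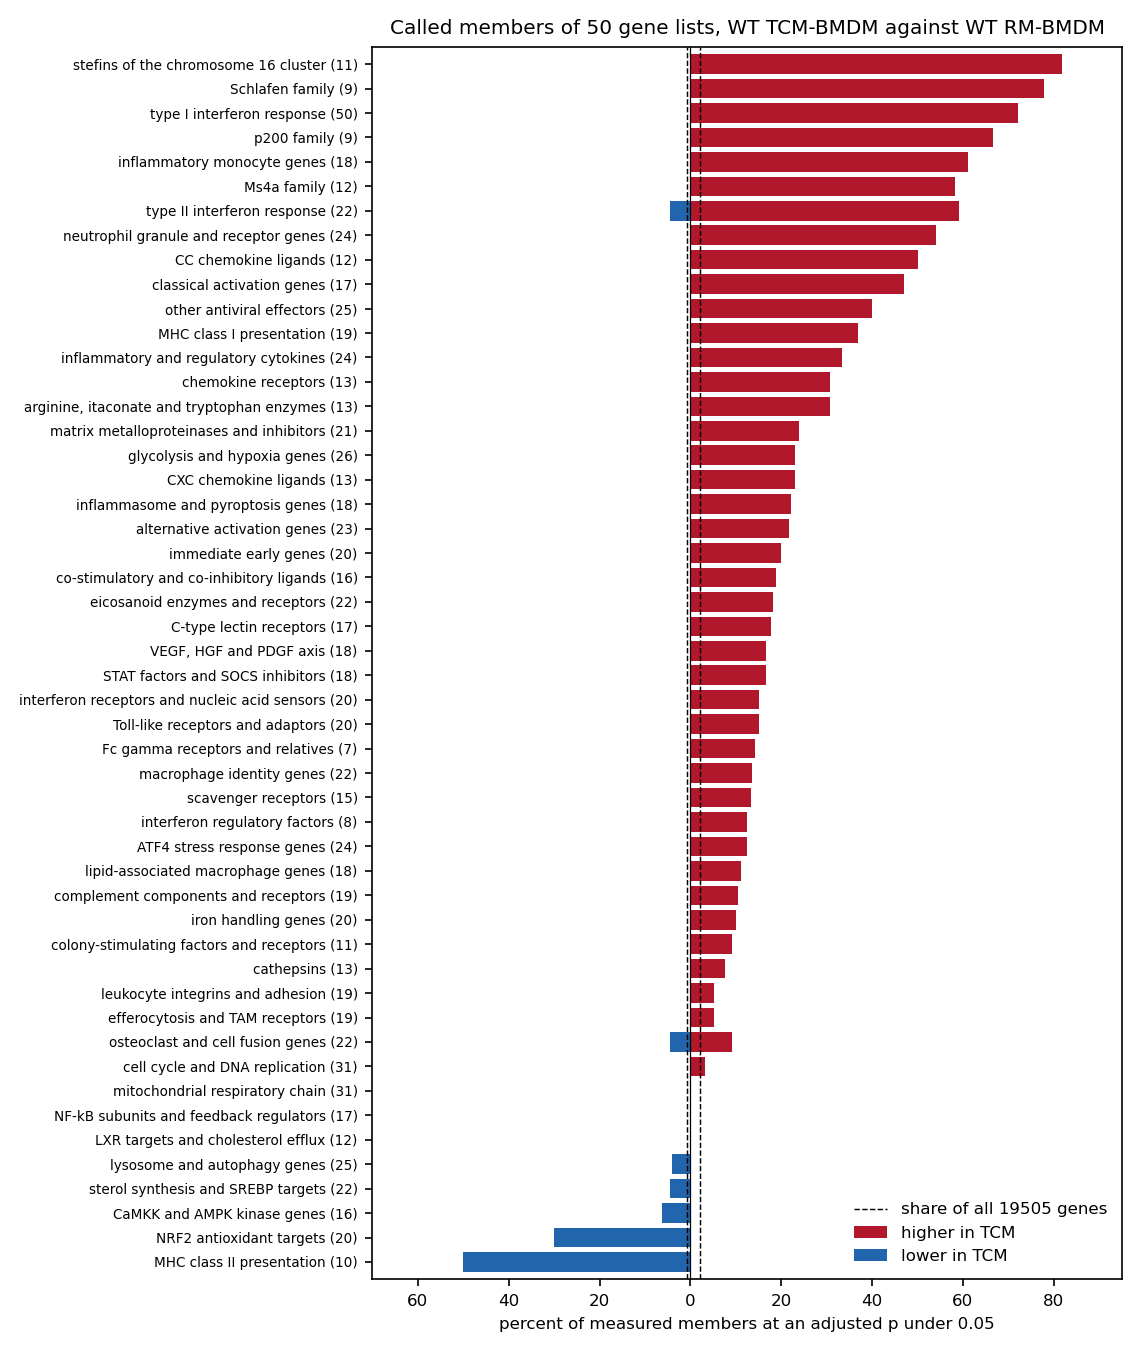
Percent of the measured members of 50 gene lists called higher (red, to the right) or lower (blue, to the left) in WT TCM-BMDM at an adjusted p under 0.05, with the number of measured members in brackets and the shares of all genes, 2.21% and 0.697%, as dashed lines. The stefins, with 9 of 11 higher, head the plot, and MHC class II presentation, with 5 of 10 lower, and the NRF2 targets, with 6 of 20 lower, close it.

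Among chemokines, the ligands of monocyte receptors rose. Of 12 CC ligands, 6 were called higher and 0 lower (0 at an unadjusted p under 0.05), and 3 of 13 CXC ligands were higher and 0 lower (0 at an unadjusted p under 0.05), or 1 without TCM replicate 2 and 5 without TCM replicate 3. Ccl8, a ligand of several CC receptors, was at 5.48, 6.23, 5.46 and 3.86 in RM and 10.79, 10.60, 11.04 and 11.11 in TCM, at least 45.7-fold over background (log2 5.63, SE 0.44, adjusted p = 2.83e-07), and it was as high in TCM replicate 3 as in the other TCM arrays. Ccl12, a mouse ligand of CCR2, was at 6.20, 5.73, 4.96 and 4.66 in RM, about the level of the background probe sets. In TCM it was at 11.15, 10.38, 9.46 and 10.04, a measured 29.3-fold difference (adjusted p = 4.25e-07, limma) whose size is not settled. Ccl7, another CCR2 ligand, rose by 1.76 (SE 0.37, adjusted p = 0.0095). Ccl2, the main ligand of CCR2, was at 10.36, 8.98, 7.92 and 7.97 in RM and 11.80, 10.94, 10.18 and 10.75 in TCM, so the groups overlapped. Its call (2.11, adjusted p = 0.0189) was lost without RM replicate 3 or 4 or TCM replicate 1 or 2 (adjusted p of 0.055 to 0.0736). Of the other CC ligands, Ccl4 rose by 1.35 (adjusted p = 0.000399) and Ccl5 by 2.86 (SE 0.55, adjusted p = 0.00507), and Ccl3 had a log2 fold change of 0.60 (adjusted p = 0.178). Ccr1, a receptor for several of these ligands, rose by 1.76 (SE 0.22, adjusted p = 6.28e-05).

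The CXC ligands were less uniform. Pf4, which encodes platelet factor 4, a product of megakaryocytes that macrophages also make, was at 12.99, 11.72, 11.48 and 11.61 in RM and 13.91, 14.13, 14.09 and 13.36 in TCM (1.92, SE 0.31, adjusted p = 0.000941). Cxcl10, which attracts T cells through CXCR3, was at 9.45, 9.85, 9.90 and 9.04 in RM and 13.90, 14.08, 9.70 and 12.01 in TCM. Replicate 3 of TCM thus lay within the RM range. The log2 fold change was 2.86 (SE 0.62, adjusted p = 0.0121), a call that was lost without TCM replicate 2 (adjusted p = 0.0589) and in a fit to the 8 WT arrays (adjusted p = 0.0625). Cxcl2, an attractant of neutrophils, had a log2 fold change of 1.89 (adjusted p = 0.0452), which passed without TCM replicate 3 or 4 or RM replicate 1 and did not pass without any other array (adjusted p of 0.104 to 0.181) or with arrays centred on their medians (adjusted p = 0.0516). Of 10 CXC ligands with a promoter window, 5 held this NF-kB motif (50%, Wilson interval 23.7% to 76.3%). The share was 4.82% for all windows and 6.58% for those of the higher DEGs. Cxcl2 and Cxcl10, whose calls were lost in some fits, were among the 5. The others were not called (limma), namely Cxcl1 (0.27, adjusted p = 0.766), Cxcl3 (0.64, adjusted p = 0.292) and Cxcl9 (0.82, adjusted p = 0.165). The part of NF-kB in the rises of CXC ligands was not tested.

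Acute-phase and inflammatory genes were also higher. Saa3, the serum amyloid A of mouse macrophages, was at 11.28, 12.41, 11.38 and 12.86 in RM and 16.44, 17.32, 16.50 and 17.25 in TCM, a 29.7-fold difference (log2 4.89, SE 0.35, adjusted p = 7e-08) with the TCM arrays within 1 log2 unit of each other. Cfb, which encodes factor B of the alternative complement pathway, was at 5.33, 5.41, 5.68 and 6.33 in RM and 9.61, 10.22, 8.67 and 10.47 in TCM (4.05, SE 0.46, adjusted p = 3.51e-05). Nos2, which encodes the inducible nitric oxide synthase, was at 4.78, 5.50, 5.50 and 5.10 in RM, about background, and at 9.26, 8.51, 5.79 and 7.52 in TCM, at least 5.28-fold over background (adjusted p = 0.00739). Il1b rose by 2.50 (SE 0.42, adjusted p = 0.00168), and Cd40, which encodes a costimulatory receptor, by 1.60 (adjusted p = 0.00739). Of 17 genes of classical activation, 8 were called higher and 0 lower (0 at an unadjusted p under 0.05), and 4 or 5 without any of RM replicates 1 to 3 or TCM replicates 1 and 2. The itaconate enzyme gene Acod1 (1.84, adjusted p = 0.0383) and the prostaglandin synthase gene Ptgs2 (at least 2.2-fold, adjusted p = 0.0433) passed but lost their calls under both scalings and without most single arrays (adjusted p of 0.0585 to 0.157 and 0.0693 to 0.175), and Cd86 (1.02, adjusted p = 0.0216) was lost without RM replicate 1, 2 or 3 or TCM replicate 1, 2 or 4 (adjusted p of 0.057 to 0.101). Tnf, named after its values were seen, was at 12.99, 12.86, 10.01 and 11.11 in TCM and 10.18 to 10.84 in RM, and did not pass (1.17, SE 0.51, adjusted p = 0.29), though it did without TCM replicate 3 (adjusted p = 0.0268). Of 17 NF-kB subunits and feedback regulators, 0 were called (limma, 2 higher and 0 lower at an unadjusted p under 0.05), and 2 without TCM replicate 3. Their list mean was 0.66, 0.41, −0.56 and −0.14 in the TCM arrays.

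**Figure D4:**
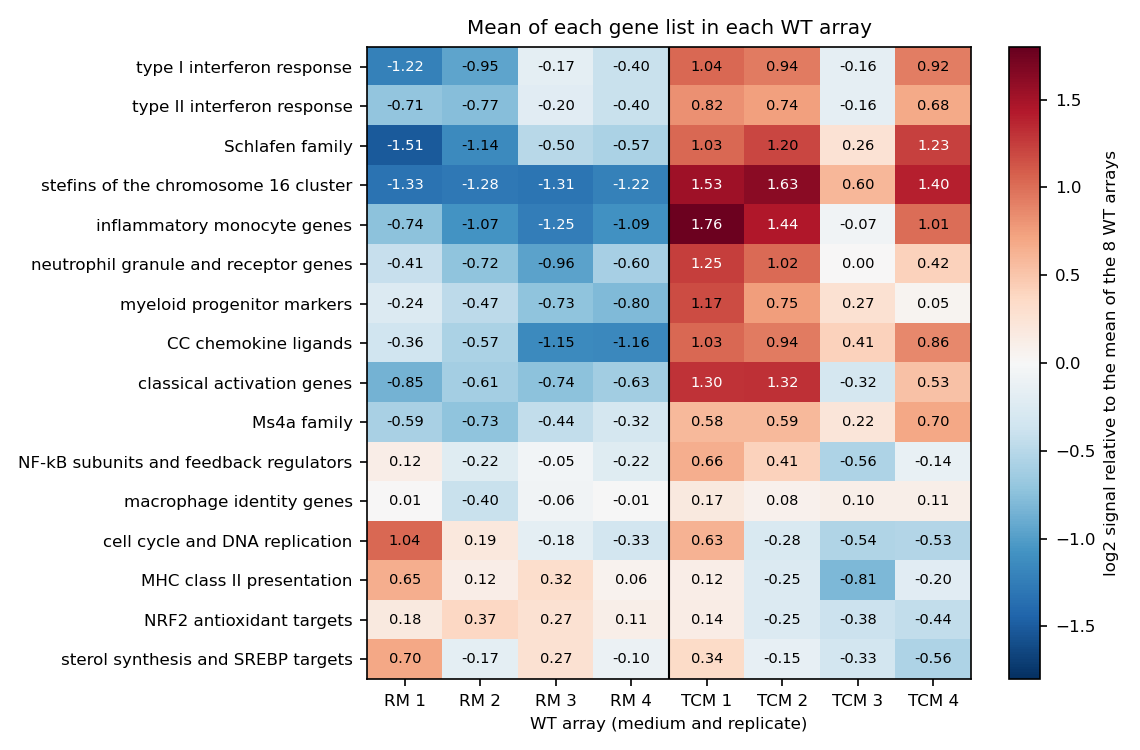
Mean log2 signal of 16 gene lists (rows) in each WT array (columns), relative to the mean of the 8 WT arrays, with the value printed in each cell. In the type I interferon row, TCM replicate 3 stands at −0.16 beside 0.92 to 1.04 in the other TCM arrays, while the macrophage identity row stays between −0.40 and 0.17.

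Of 23 measured genes of alternative activation, 5 were called higher, or 3 with the WT arrays alone, and 0 lower (1 lower at an unadjusted p under 0.05), at a median of 0.31. Il4ra, a chain of the receptors for IL-4 and IL-13, was at 12.91, 12.88, 12.77 and 12.97 in RM and 14.10, 13.93, 14.34 and 14.08 in TCM, a log2 fold change of 1.23 with a SE of 0.15 (adjusted p = 6.28e-05). Socs2, an inhibitor of cytokine receptors, rose by 1.28 (adjusted p = 0.00291), and Il10, which encodes an anti-inflammatory cytokine, by 1.14 (adjusted p = 0.00997). Arg1, the arginase that marks cells exposed to IL-4, was at background, with 4.76 ± 0.58 in RM and 5.07 ± 0.28 in TCM (SD, n = 4), as was Retnla, named after its values were seen, with 3.17 ± 0.50 and 3.44 ± 0.16. Mrc1, which encodes the mannose receptor CD206, had a log2 fold change of 0.42 (SE 0.25, adjusted p = 0.495). Among other cytokine genes, Il18 rose by 1.15 (adjusted p = 0.000455), its inhibitor Il18bp by 2.13 (adjusted p = 0.000145), and Csf1, which encodes the growth factor of macrophages themselves, by 1.55 (adjusted p = 0.0108). The call of Csf1 was lost without TCM replicate 2 (adjusted p = 0.0566).

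Several genes of matrix and growth factor biology rose. Mmp14, which encodes a membrane-bound collagenase, was at 7.59, 8.08, 9.45 and 9.48 in RM and 11.90, 12.67, 11.08 and 12.26 in TCM, a 10.0-fold difference (adjusted p = 0.000242). Serpinb2, an inhibitor of plasminogen activators, rose by 2.87 (SE 0.39, adjusted p = 0.000158). Of 21 genes of matrix proteases and their inhibitors, 5 were higher and 0 lower (0 at an unadjusted p under 0.05), and 2 or 3 without RM replicate 1 or 2 or TCM replicate 1, 2 or 4. Pdgfc, which encodes a platelet-derived growth factor, was at 6.22, 5.43, 6.19 and 5.45 in RM and 8.18, 8.08, 9.06 and 9.12 in TCM, highest in replicates 3 and 4 (2.79, SE 0.29, adjusted p = 9.46e-06). The receptor genes Kdr, for VEGF, and Met, for HGF, rose by 2.51 (adjusted p = 0.000243) and 1.68 (adjusted p = 0.000358).

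Of the 50 functional lists, MHC class II presentation had the largest share of members called lower. Of 10 measured genes, 0 were called higher (0 at an unadjusted p under 0.05) and 5 lower, at a median of −0.83. The list means were 0.65, 0.12, 0.32 and 0.06 in RM and 0.12, −0.25, −0.81 and −0.20 in TCM, relative to the 8 WT arrays. TCM replicate 1 thus lay within the RM range, and TCM replicate 3 was the lowest TCM array for 9 of the 10 genes. With any single array left out, 4 or 5 were called lower. H2-Eb1, a class II β chain, was at 15.09, 14.58, 14.84 and 14.92 in RM and 13.89, 13.84, 13.75 and 13.99 in TCM, and fell by 0.99 on the log2 scale (SE 0.16, adjusted p = 0.00137), and the 4 TCM arrays, replicate 3 included, lay between 13.75 and 13.99. H2-Aa, an α chain, was at 17.02, 16.62, 16.97 and 16.97 in RM and 16.36, 15.63, 15.06 and 15.61 in TCM (−1.23, SE 0.24, adjusted p = 0.00484), and the β chain gene H2-Ab1 fell by 0.92 (adjusted p = 0.0139). Ciita was at 9.83, 9.60, 9.31 and 8.95 in RM and 8.70, 8.00, 7.73 and 8.38 in TCM (−1.22, SE 0.24, adjusted p = 0.00508), and it counts in the type II interferon list as well. H2-DMa, part of the peptide-loading dimer, was called (−0.98, adjusted p = 0.0333) but not without RM replicate 1 or 3 or TCM replicate 2, 3 or 4 (adjusted p of 0.0692 to 0.13), and its partner H2-DMb1 did not pass (−0.74, adjusted p = 0.236).

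Antioxidant genes fell as well. NRF2 is the transcription factor that induces glutathione and thioredoxin enzymes under oxidative stress. Of 20 measured targets, 6 were called lower and 0 higher (2 higher at an unadjusted p under 0.05), at a median of −0.65. Without TCM replicate 2 or 4, or with the WT arrays alone, 3 were called lower. The 2 subunits of the enzyme that starts glutathione synthesis fell together. Gclc was at 10.58, 10.77, 10.63 and 10.69 in RM and 9.96, 9.96, 9.46 and 9.47 in TCM (−0.95, SE 0.16, adjusted p = 0.00149), and Gclm at 13.81, 13.99, 14 and 13.92 in RM and 13.42, 12.96, 12.93 and 12.86 in TCM (−0.88, SE 0.17, adjusted p = 0.00426). Txnrd1, thioredoxin reductase, fell by 1.04 (adjusted p = 0.00522). Pgd, an enzyme of the pentose phosphate pathway (−0.82, adjusted p = 0.013), was lost without TCM replicate 2 or 4 (adjusted p of 0.059 and 0.0607). Srxn1, sulfiredoxin (−1.23, adjusted p = 0.0178), and Nqo1, a quinone reductase (−0.97, adjusted p = 0.0298), both named after their values were seen, had overlapping groups. Their calls were lost in 4 and 6 of the 8 fits that left out a single WT array, with adjusted p of 0.0528 to 0.0681 and 0.053 to 0.118. For 2 of the 20 targets the fold change was positive. Hmox1, heme oxygenase, had a log2 fold change of 0.45 (adjusted p = 0.176), and the cystine transporter gene Slc7a11 one of 1.07 (adjusted p = 0.0925), which passed without TCM replicate 3 (adjusted p = 0.0149). These 2 genes were named after their values were seen.

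The genes with the largest falls belong to no shared list. Dcstamp, which encodes a receptor without which osteoclasts and giant cells do not fuse, was at 10.46, 9.48, 9.03 and 8.72 in RM and 7.67, 6.66, 5.94 and 6.07 in TCM, a 7.17-fold difference (log2 −2.84, SE 0.44, adjusted p = 0.000622). Within the osteoclast list of 22 genes it was the only member called lower, and 2 were higher, or 1 without RM replicate 1 or 2 or TCM replicate 2 or 4. Igfbp4, a binding protein of insulin-like growth factors, was at 11.21, 10.77, 11.12 and 11.00 in RM and 9.38, 8.90, 9.74 and 9.03 in TCM (−1.76, SE 0.21, adjusted p = 6.23e-05). Sulf2, an extracellular sulfatase of heparan sulfate, fell by 1.70 (adjusted p = 0.000123), the Ras-related GTPase gene Mras by 1.85 (adjusted p = 6.28e-05) and the GTPase gene Rhoj by 1.66 (adjusted p = 0.00248). Nes, which encodes the intermediate filament nestin, and Slco2b1, an organic anion transporter, fell to means below background, by at least 2.28-fold and 1.08-fold. Ephx1, an epoxide hydrolase, fell by 1.63 (adjusted p = 0.00291) and Gpx3, a secreted glutathione peroxidase, by 1.55 (adjusted p = 0.00527). Of 22 genes of sterol synthesis, 1 was called lower and 0 higher (0 at an unadjusted p under 0.05), but 0 lower without any single array other than RM replicate 3 or TCM replicate 1, and 2 without the latter. It was the stearoyl desaturase gene Scd1 (−1.28, adjusted p = 0.0303), whose call was lost without RM replicate 1, 2 or 4 or TCM replicate 2, 3 or 4 (adjusted p of 0.0646 to 0.0965).

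Some genes of lipid handling, nutrient stress and signalling rose on their own. Cd5l, a secreted protein of tissue macrophages that protects them from apoptosis, was at 15.67, 15.25, 15.40 and 15.43 in RM and 16.99, 16.97, 17.12 and 16.82 in TCM, a log2 fold change of 1.54 with a SE of 0.17 (adjusted p = 1.99e-05). Fabp4, a fatty acid-binding protein gene, was at 12.93, 12.67, 12.65 and 12.80 in RM and 13.30, 14.17, 14.95 and 14.31 in TCM, highest in TCM replicate 3 (1.42, adjusted p = 0.00261). The C-type lectin gene Clec4n, which encodes dectin-2, rose by 2.20 (adjusted p = 8.77e-05), the protease gene Ctsc by 1.40 (adjusted p = 0.00134), the phosphatase gene Dusp1 by 1.80 (adjusted p = 0.000496) and the early activation antigen gene Cd69 by 2.99 (adjusted p = 0.000424). Of 24 genes of the ATF4 stress response, 3 were called higher (5 and 6 without TCM replicate 4 and 3), among them Nupr1 (1.86, adjusted p = 0.000273) and the mitochondrial folate enzyme gene Mthfd2 (1.24, adjusted p = 0.000757). Of 26 genes of glycolysis and hypoxia, 6 were called higher and 0 lower (1 lower at an unadjusted p under 0.05), including Pfkfb3, which drives phosphofructokinase (0.97, adjusted p = 0.00535), and that count was 3 under both scalings and 2 or 3 without any single array other than RM replicate 2 or TCM replicate 3. Of 31 genes of the mitochondrial respiratory chain, 0 were called (limma, 0 higher and 2 lower at an unadjusted p under 0.05), or 1 lower without TCM replicate 1. Of 31 genes of the cell cycle and DNA replication, 1 was called higher, a call kept only without TCM replicate 3 among the fits that left out an array, and 0 lower (5 lower at an unadjusted p under 0.05, and 1 called without RM replicate 2), at a median of −0.46. Their list means were highest in replicate 1 of either medium, at 1.04 in RM and 0.63 in TCM, and lay between −0.54 and 0.19 in the other 6 arrays.

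**Figure D5:**
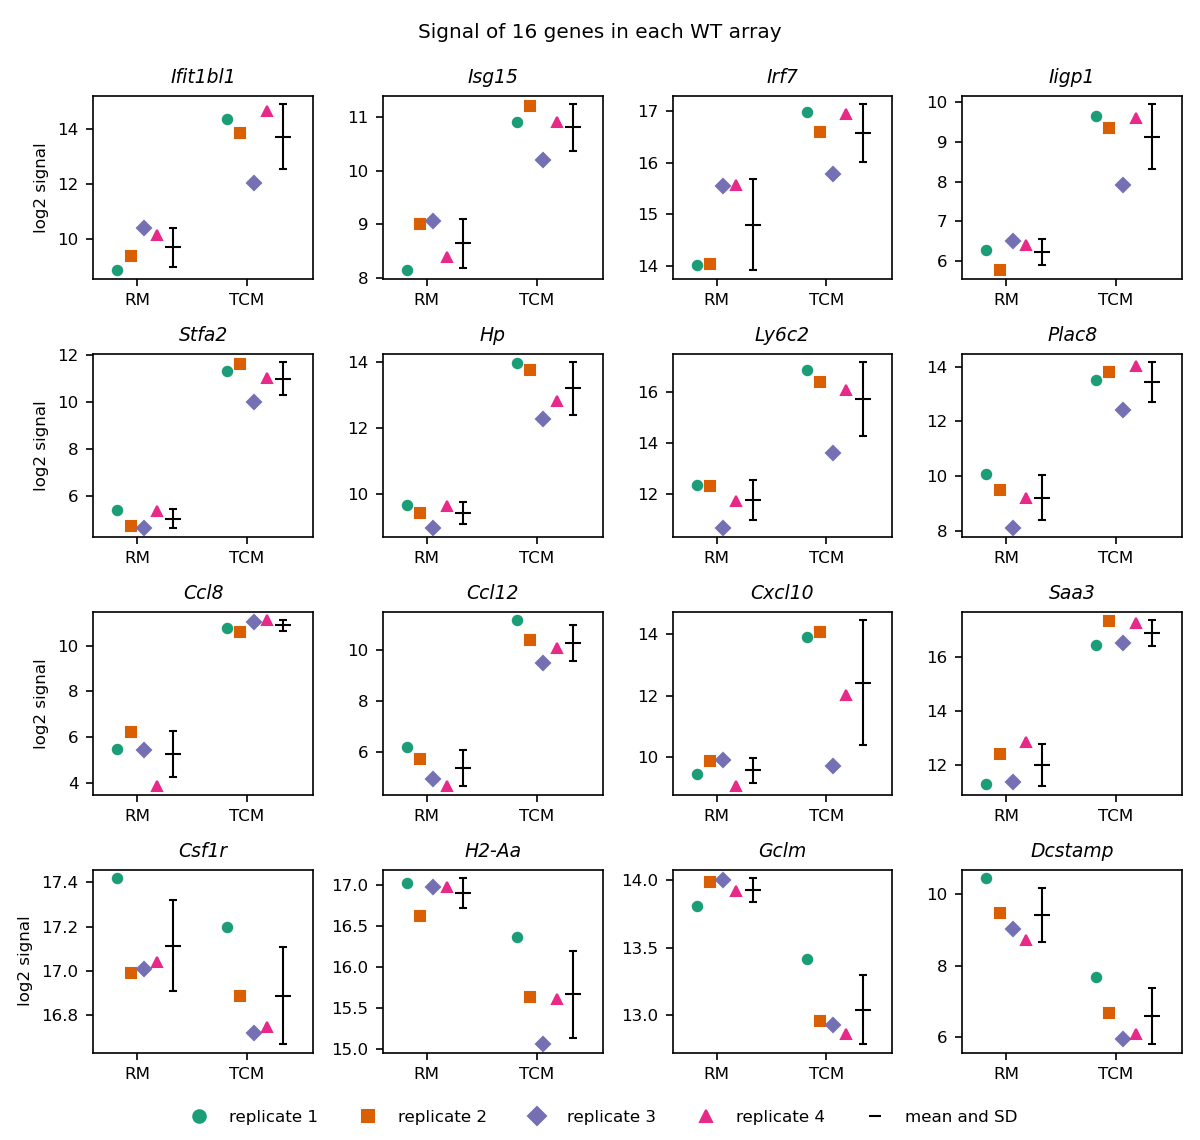
Log2 signal (vertical axes, each with its own range) of 16 genes in the 4 WT RM-BMDM and 4 WT TCM-BMDM arrays, with each replicate as its own symbol and the mean and SD as black bars. TCM replicate 3 (diamond) is the lowest TCM array for Isg15, Ly6c2 and Cxcl10, and lies among the others for Ccl8, while Csf1r differs between the media by 0.22 on the log2 scale.

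The WT response was set beside that of Camkk2-/- BMDM, measured on 8 other arrays. Of the 398 genes that rose in WT cells, 389 had a positive fold change in Camkk2-/- cells, and of the 119 that fell, 116 had a negative one. The median log2 fold changes of these genes were 1.23 and −0.95 in WT cells, which chose them, and 1.72 and −1.42 in Camkk2-/- cells. A test of the difference between the genotypes was passed by 28 of all genes (0.144%, adjusted p under 0.05, limma), 7 of them among the 517 WT DEGs. Gclm fell by 0.88 in WT and by 2.40 in Camkk2-/- BMDM, from a mean of 14.23 to 11.83, and the difference of 1.51 (SE 0.24) had an adjusted p = 0.00908. Gbp8 rose by 1.84 in WT and 3.61 in Camkk2-/- BMDM, a difference of −1.77 (SE 0.35, adjusted p = 0.0415). Cxcl11, a further CXCR3 ligand, was at 3.06, 3.80, 3.02 and 3.97 in WT RM and 6.27, 5.51, 3.65 and 4.69 in WT TCM, means below background in both (1.57, adjusted p = 0.0517, or 0.00284 without TCM replicate 3). In Camkk2-/- BMDM its mean went from 4.59, also below background, to 11.59, at least 74.6-fold over background. The test of the difference between the genotypes passed (adjusted p = 0.000357), but with 3 of the 4 means below background its size is not settled. For the other genes named above, the difference did not pass, which does not show that the responses were equal.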

How the data were processed

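RNA of 16 BMDM cultures, 4 per genotype and medium, was hybridised to mouse Affymetrix gene arrays. The authors deposited log2 signals, 1 value per probe set and array, made with Affymetrix Expression Console per the labels by a normalization not given in the sources used here, and these values were taken as deposited. Of 28846 probe sets, 6640 controls and those without a single gene symbol were left out, and for the 55 genes with several probe sets the brightest on average was kept, which gave 19505 genes. limma 3.58.1 in R 4.3.3 fitted the 4 groups over the 16 arrays together, with Benjamini-Hochberg adjustment over all genes. On simulated arrays with known changes, 99 of 100 genes changed by 2 on the log2 scale and 74 of 100 changed by 1 were called. The simulated noise was independent between genes and arrays, without departures shared by many genes, as in TCM replicate 3. The recovered shares thus need not hold for the real arrays. Arrays give no counts, so their number limits the precision. SDs are over 4 arrays.

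Genes could be named if they were among the 20 largest changes in each direction of DEGs whose groups do not overlap, among the 4 members of a list with the smallest adjusted p or the 2 called against its main direction, or Camkk2, a macrophage identity gene, a stefin or a member of a list of 14 or fewer genes. A further 9 (Ifit1, S100a9, Ngp, Tnf, Retnla, Srxn1, Nqo1, Hmox1 and Slc7a11) were named after their values were seen. The comparison, the lists and the genes were chosen with earlier results of these data known. Of the 53 genes written for the type I interferon list, 50 were measured. Promoter windows came from RefSeq, GRCm38.p6. Alternatives were the WT arrays alone, another variance model, array weights, repeated scaling, other rules for dim and repeated probe sets, a replicate block, each array left out, and other thresholds.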

Additional observations from a re-analysis of the deposited data

Results flagged for a closer look

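Over 136 genes, 272 groups of 4 arrays were checked for an array apart from the other 3 (Dixon's criterion). Chance alone would give about 1 in 20, or 13.6 groups, if the groups were independent, which genes of a shared program are not. The number found, 16, is near that, but the total does not say how the groups are spread over the arrays. In TCM, replicate 3 was the array apart, as the lowest, for Ifit1 at 11.85, Gbp4 at 10.24, Tgtp2 at 11.60, Irf1 at 12.77, Ifi213 at 13.72, Csta2 at 6.75 and Ly6i at 10.86. The highest TCM array stood apart for Gbp8 at 10.58, H2-T22 at 13.31 and Hmox1 at 16.51. In RM, the highest array stood apart for Csf1r at 17.42 and Pf4 at 12.99, both in replicate 1, and for Cd86 at 10.30 in replicate 4, and the lowest for H2-Aa at 16.62, Stfa1 at 2.67 and Fhit, a nucleotide hydrolase gene that was lower in TCM (−1.70, adjusted p = 0.000154, limma), at 6.57.

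The TCM response differed between WT and Camkk2-/- BMDM for Gbp8, by −1.77 (adjusted p = 0.0415, limma), for Cxcl11, by a measured −5.43 (adjusted p = 0.000357) with 3 of its 4 group means below background, so that the size is not settled, and for Gclm, by 1.51 (adjusted p = 0.00908), each as the WT log2 fold change minus that of Camkk2-/- cells.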

How the results depend on the processing

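No named gene that was called changed the direction of its fold change under the alternatives run. The directions of genes not called were not checked. A fit to the 8 WT arrays alone gave 74 lower genes, 279 higher, 20 type I interferon genes and 3 NRF2 targets. Besides Slfn2 and Cxcl10, that fit lost the calls of Maf, Lcn2, Cxcl2, Acod1, Ptgs2, Cd86, H2-DMa, Pgd, Srxn1 and Nqo1. Their adjusted p-values ran from 0.0578 for Pgd to 0.182 for Maf (limma). At an adjusted p under 0.01, 205 genes were higher and 53 lower, the list members called were 106 higher and 7 lower, and the counts were 17 type I interferon genes, 7 neutrophil genes, 3 MHC class II genes and 3 NRF2 targets. In the 150 bases nearest the start site, the ISRE core was in 1.36% of all windows and 10.9% of those of the higher DEGs. Of the higher DEGs, 265 were also called with the WT arrays alone. With single arrays left out, 255 to 508 genes were higher and 67 to 175 lower, and 118 to 236 list members were higher and 8 to 20 lower, the last at 8 without TCM replicate 2 and 9 without TCM replicate 4, against 15 in all. Type I interferon genes ran from 18 to 48, stefins from 8 to 9, neutrophil genes from 8 (without RM or TCM replicate 2) to 14, monocyte genes from 8 to 14, CC ligands from 5 to 7, MHC class II genes from 4 to 5 and NRF2 targets from 3 (without TCM replicate 2 or 4) to 8. NRF2 targets called higher ran from 0 to 1, the 1 without TCM replicate 3. With a variance trend and robust fit, Mpo (adjusted p = 0.0598), Elane, Lcn2, Ccl2, Cxcl10, Cxcl2, Acod1 and Ptgs2 were not called. The cause was not tested. Means below the background median limit the size of the changes of 50 higher and 12 lower DEGs.

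The replicate numbers were not treated as pairs, since no label states shared marrow and not every pair correlated above 0.1. Deviations of RM and TCM arrays with the same number correlated at −0.13 to 0.19, and 6 of 8 WT arrays correlated best with their own number, a hint from the data and not from the design. With the replicate block over all arrays, 418 genes were higher and 123 lower. With the block and only the 8 WT arrays, a setting added after the data were seen, 342 were higher and 100 lower, with 18 type I interferon genes and 3 NRF2 targets.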
